A study of Mus musculus with 8 samples.

Results

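The genes described here restrain or report signaling by fibroblast growth factors (FGF). They are 10 genes, *Spry1*, *Spry2*, *Spry4*, *Spred1*, *Spred2*, *Dusp6*, *Il17rd*, *Etv1*, *Etv4* and *Etv5*, chosen by symbol from a table of 48526 genes, and all 10 had a row. The table holds RNA from the heart field of 4 mouse embryos, all male, wild-type and of the strain C57bl6/J, collected at E8.5f, a stage of heart looping. The tissue spans the region behind the headfolds as far as the somite named second, and was dissected to leave out the heart tube and dorsal tissue. Its sides were kept as separate samples, so that both libraries of an embryo come from a single animal. The embryos, which were not pooled, are called L29-3, L43-5, L46-8 and L49-3, and wherever 4 values of a side are listed they follow this order. The comparison asks which genes differ between the sides.

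FGF ligands bind receptor tyrosine kinases at the cell surface, which switch on RAS and then the kinases RAF, MEK and ERK. ERK activity induces genes that report it, among them the ETS transcription factors *Etv1*, *Etv4* and *Etv5* of the PEA3 group. It also induces genes that act back on the cascade. The Sprouty proteins (*Spry1*, *Spry2*, *Spry4*) and the related Spred proteins (*Spred1*, *Spred2*) act at the level of RAS and RAF, *Dusp6* is a phosphatase that removes phosphate from ERK in the cytoplasm, and *Il17rd*, also called Sef, is a membrane protein that lowers FGF signaling. In the heart field, *Fgf8* and *Fgf10* are known as ligands of the second heart field, which adds cells to both poles of the heart tube.

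Sequence upstream of the transcription start is shown for *Spry2*, the gene that passed the study's threshold, for *Dusp6*, the gene of highest level per exon base, and for *Etv5*, the most abundant factor of the PEA3 group. The 250 bases before the RefSeq start site are given 5′ to 3′ on the gene's own strand, on GRCm38, with every GGAA, the core of the sites that ETS factors bind, and its reverse complement TTCC in capitals.
*Spry2*, chr14:105896820-105897069, minus strand: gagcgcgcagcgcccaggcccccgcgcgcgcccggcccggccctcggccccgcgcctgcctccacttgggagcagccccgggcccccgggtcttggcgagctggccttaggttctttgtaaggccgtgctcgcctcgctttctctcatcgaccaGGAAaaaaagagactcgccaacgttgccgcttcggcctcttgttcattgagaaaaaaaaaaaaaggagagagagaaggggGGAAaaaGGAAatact
*Dusp6*, chr10:99262981-99263230, plus strand: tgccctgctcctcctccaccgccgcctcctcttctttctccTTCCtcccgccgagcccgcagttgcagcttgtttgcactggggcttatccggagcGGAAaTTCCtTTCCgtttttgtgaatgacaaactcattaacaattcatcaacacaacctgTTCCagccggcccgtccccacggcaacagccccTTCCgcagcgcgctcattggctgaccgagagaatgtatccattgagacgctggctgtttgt
*Etv5*, chr16:22438369-22438618, minus strand: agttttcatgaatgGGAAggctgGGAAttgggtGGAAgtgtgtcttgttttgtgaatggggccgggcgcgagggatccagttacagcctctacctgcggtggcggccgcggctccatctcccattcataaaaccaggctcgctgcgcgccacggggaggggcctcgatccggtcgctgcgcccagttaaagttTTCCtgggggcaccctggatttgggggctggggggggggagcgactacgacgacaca
There were 3 such matches in *Spry2*, 6 in *Dusp6* and 4 in *Etv5*. In *Spry2* all 3 were on the gene's strand, at 96, 16 and 9 bases before the start, while 5 of the 6 in *Dusp6* were on the other strand. The *Etv5* window lies within the gene, outside the exons of its longer transcripts in GENCODE vM21, and a second *Etv5* start site had 0 matches in its window. RefSeq windows were used for 8 of the 10 genes, without *Etv4* and *Spry4*, and each of the 8 held at least 1 match. A match of 4 letters is common, being present in 93.4% of all 32851 windows, and the median was 3 matches per window over all of them and 3.5 over the 10 windows of these genes. The longer motif CCGGAA, searched on both strands and overlapping the shorter one, was in the windows of 0 of the 8 genes, against 13.6% of all genes with a window. These are matches of letters, with no binding data.

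The depth was low. The total count per library, after the removal of duplicate reads by the authors, ranged from 1147446 to 3520753, and the 10 genes had between 9 reads (*Etv1*, right side of L49-3) and 475 reads (*Spred1*, right side of L43-5) in a library. Values below are counts divided by DESeq2 size factors, called normalized counts, unless a sentence says otherwise. *Lefty2*, a target of NODAL that is expressed on the left, was higher in every left library than in any right one, with 43.03 to 305 normalized counts in the left libraries and 0 to 11.6 in the right ones. The second heart field markers *Isl1*, *Six2*, *Fgf8*, *Fgf10*, *Tbx1* and *Hand2* were present in all libraries, with summed levels of 400.3 to 723. Markers of tissues meant to be left out were read as well. The cardiomyocyte markers summed to 771 to 5817 and the neural tube markers to 326 to 947. Other tissues were read too. Surface ectoderm markers, of which *Krt8* and *Krt18* were the highest, summed to 1048 to 1611. Foregut endoderm markers summed to 688 to 835, paraxial mesoderm markers to 379 to 576 and cranial neural crest markers to 302 to 435. Embryo L49-3 stood apart: the juxta-cardiac markers *Tbx5*, *Mab21l2* and *Hand1* summed to 48.0 on the left and 51.5 on the right, against 203 to 425 in the other 6 libraries. Over the genes, the right library of L46-8 differed from the libraries of L49-3 with a chi-square per degree of freedom of 2.14 (left) and 2.04 (right), less than from the left library of its own embryo, at 3.19, and that left library differed least from the right one of L29-3, at 2.05. The left library of L43-5 also differed more from the right one of its own embryo, at 4.05, than from the right one of L29-3, at 3.13. This statistic rises with the reads of a library. All libraries are used as labelled. Values or calls without L46-8 are given where a call of the 10 genes or of the pathway genes moved. The samples are bulk tissue, in which fewer cells of a type and less RNA per cell cannot be told apart.

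Reads of all 10 genes were found in the dissected tissue on both sides, without showing which of its cells they came from. A gene was tested if it had at least 20 normalized counts in at least 4 of the 8 libraries, a filter that 9744 genes passed. The 10 genes all passed it, 9 of them with at least 20 in every library, and *Etv1* in 6 of 8. Levels were compared between genes as CPM per kilobase of exon (CPM being the count scaled to a fixed library total), with the mean ± SD over 8 libraries. *Dusp6* had the highest level, 35.4 ± 6.17, followed by *Etv5* at 33.3 ± 2.71, and *Dusp6* exceeded *Etv5* in 4 of 8 libraries only, so these neighbours were not separated. *Spry2* (25.8 ± 4.42), *Spred1* (22.3 ± 1.18) and *Spred2* (20.7 ± 2.77) came next. *Spry2* was above *Spred1* in 6 of 8 libraries, and *Spred1* above *Spred2* in 7 of 8, so that order is not fixed by every library either.

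The lower part of the order was clearer. *Spry1* (13.9 ± 3.69) was below *Spred2* in 8 of 8 libraries and above *Il17rd* (11.5 ± 1.103) in 7 of 8. *Il17rd* was above *Etv4* (8.95 ± 0.915), *Etv4* above *Spry4* (4.03 ± 1.13), and *Spry4* above *Etv1* (1.02 ± 0.278), each in 8 of 8 libraries. The median of the 10 levels was 17.3, against 11.1 for the 9737 tested genes with an exon length. The order depended on the length used. With the mean length of the coding transcripts in place of all exon bases, *Etv5* came first at 49.7, *Il17rd* went from the seventh to the fifth place at 30.1, *Spry2* from the third to the sixth at 25.8, *Etv1* passed *Spry4* at 6.28 against 4.03, and the median was 28.0. *Etv1* has 13296 exon bases in all but coding transcripts of 2167 bases on average.

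**Figure D1:**
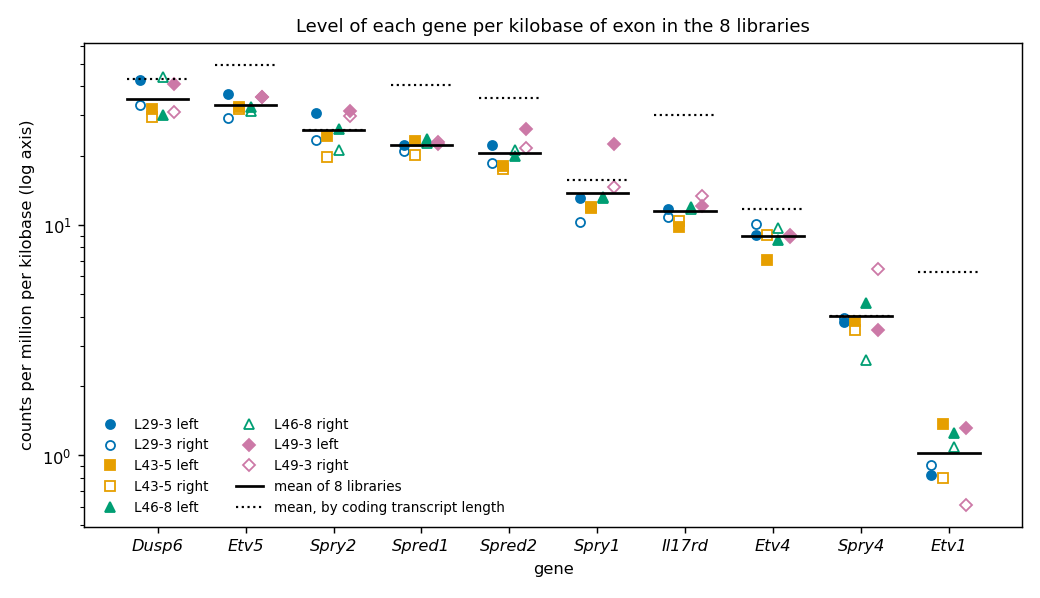
Level of each gene in CPM per kilobase of exon (log axis) in the 8 libraries, with filled symbols for left and open symbols for right, a shape and colour per embryo, a solid line at the mean and a dotted line at the mean by coding transcript length. *Dusp6* and *Etv5* lie together at the top with means of 35.4 and 33.3, and *Etv1* lies at the bottom at 1.02.

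The members of each family were far from equally abundant, with 1 exception. Among the Sprouty genes, *Spry2* was 1.89-fold above *Spry1* and 6.51-fold above *Spry4* per kilobase, and *Spry1* was 3.45-fold above *Spry4*, in 8 of 8 libraries each. Their coding regions each lie in a single exon. In the PEA3 group *Etv5* was 3.72-fold above *Etv4* in 8 of 8 libraries, and *Etv1* was the lowest by either length, *Etv5* being above it 33.6-fold per exon base and 8.17-fold per base of coding transcript. *Spred1* and *Spred2* were the close pair, with a ratio of 1.09. Over 4 embryos, an exact two-sided sign-flip test gave p = 0.25 for *Spred1* against *Spred2* and p = 0.125 for the other 6 of 7 pairs, the smallest value that 4 embryos allow, so that no pair could pass 0.05.

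Left and right were then compared. Of the 10 genes, 1 passed the threshold of the study, an unadjusted p of no more than 0.05 and a fold of 1.2 or more: *Spry2*, which was higher on the left. In the background, 297 of 9744 genes (3.05%) passed it, 159 (1.63%) with the higher value on the left and 138 (1.42%) with the lower value there, and a single call among 10 genes is too few to set them apart from that background. None of the 10 had an adjusted p under 0.05 by edgeR's quasi-likelihood test in a fit that holds the embryo as a block, and 1 had an unadjusted p under 0.05. In the whole table *Lefty2* alone had an adjusted p under 0.05 (0.0103% of genes), while 425 genes had an unadjusted p under 0.05. Normalized counts of the left and right libraries overlapped for all 10 genes, whereas 245 of the genes tested (2.51%) had no overlap between the sides.

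*Spry2* (ENSMUSG00000022114, chromosome 14, 105891947 to 105896819, minus strand, on GRCm38 as for all positions here) had left against right values of 118 against 90.4 in L29-3, 94.5 against 76.3 in L43-5, 101 against 81.2 in L46-8, and 121 against 115 in L49-3, all in normalized counts. The left value was the higher one in 4 of 4 embryos, but the right value of L49-3 was above the left values of L43-5 and L46-8, so the sides overlapped. The log2 fold change of left over right was 0.28 (SE 0.119, 95% interval 0.02 to 0.54), a fold of 1.21, for which edgeR gave an unadjusted p of 0.0387 (adjusted p = 0.987). A smaller p was found for 3.22% of the tested genes, and the exact two-sided sign-flip test over the 4 embryos gave p = 0.125, the smallest it can give. Over the alternatives the log2 fold change lay between 0.24 and 0.33, and the threshold was missed with DESeq2, with edgeR without the embryo block, and when L29-3, L43-5 or L46-8 was left out, with unadjusted p-values of 0.0812 to 0.199 in these 5 fits. Adjusted p-values over the alternatives were at least 0.956. The value was largest without L49-3, at 0.33.

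*Spry1* (chromosome 3, 37639947 to 37644598, plus strand) had similar values on both sides in L43-5 (63.9 left, 64.6 right) and L46-8 (70.8 and 71.1), and left values above the right ones in L29-3 (70.5 and 55.7) and L49-3 (121 and 78.1). The left library of L49-3 was thus the highest of the 8, and it carried much of the difference: the log2 fold change was 0.21 (SE 0.152, 95% interval -0.12 to 0.54, adjusted p = 0.987, edgeR) and 0.09 without that embryo, the one with few juxta-cardiac marker reads. The cardiomyocyte markers summed to 771 in that left library, against 2420 in the right one and 2100 to 5817 in the other 6 libraries. The part of these tissues in the *Spry1* values was not tested. In the annotation, 710 exon bases of *Spry1* are shared with *Gm42922* on the opposite strand, which had 3 reads in all 8 libraries against 619 for *Spry1*.

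*Spry4* had ratios of opposite sign in 2 embryos. The left against right values were 40.7 against 22.8 in L46-8 but 31.0 against 56.5 in L49-3. The sides were close in L29-3 (33.2 and 34.7) and L43-5 (33.9 and 30.9). The log2 ratio of left over right was 0.82 in L46-8, with a 95% counting interval of 0.02 to 1.69, and -0.88 in L49-3, with an interval of -1.75 to -0.04. These exact intervals cover counting error only and rest on 18 to 50 reads per library. The fitted log2 fold change was 0.03 (SE 0.251, 95% interval -0.52 to 0.57, adjusted p = 0.998, edgeR), and its sign turned to -0.0066 in edgeR without the embryo block, -0.02 without L43-5 and -0.20 without L46-8.

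*Spred1* varied little. The left libraries of *Spred1* (chromosome 2, 117121374 to 117182279, plus strand) had 280, 290, 298 and 283 normalized counts, and the right ones 262, 253, 283 and 288. Its log2 fold change of 0.09 (SE 0.0771, adjusted p = 0.987, edgeR) had a 95% interval that narrowly excludes a fold of 1.2, with an upper end at 1.196. In this fit, depth and spread allowed only a small difference. *Spred2* (chromosome 11, 19924375 to 20024026, plus strand) gave 189, 155, 172 and 223 in the left libraries and 158, 150, 180 and 184 in the right ones, with L49-3 highest on both sides. Its log2 fold change was 0.11 (SE 0.0977, adjusted p = 0.987, edgeR), with a left value above the right one in 3 of 4 embryos. *Spred1* shares 169 near-identical bases with *Vps35*, a gene of 2658 reads, so a small part of its reads could be uncertain, and *Spred2* shares 575 with *Gm14612*, which had 0 reads.

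*Dusp6* (chromosome 10, 99263231 to 99267489, plus strand) had ratios that differed in sign between embryos. The left library was above the right one in 3 embryos, with 247 against 192 normalized counts in L29-3, 186 against 170 in L43-5 and 238 against 178 in L49-3, and below it in L46-8, with 175 against 255. The counting intervals of the log2 ratio lay above 0 in L29-3 (0.37, 0.09 to 0.66) and L49-3 (0.41, 0.05 to 0.78) and below 0 in L46-8 (-0.55, -0.84 to -0.27). The log2 fold change over 4 embryos was 0.08 (SE 0.138, 95% interval -0.23 to 0.38, adjusted p = 0.987, edgeR). Without L46-8 it was 0.29 with an unadjusted p of 0.0180 (adjusted p = 0.997), past the threshold of the study, and without L29-3 or L49-3 it was -0.02 and -0.01. In L46-8 the cardiomyocyte markers summed to 3706 on the left and 2100 on the right, and the neural tube markers to 326 and 623. The part of these tissues in the *Dusp6* values was not tested. *Il17rd* (chromosome 14, 27038941 to 27107286, plus strand), the other inhibitor outside the Sprouty and Spred families, shares repeat-like stretches of up to 151 bases with 1020 other genes and had left values of 238, 199, 243 and 246 and right values of 222, 212, 239 and 269. Its log2 fold change was -0.02 (SE 0.0831, 95% interval -0.20 to 0.16, adjusted p = 0.996, edgeR), within a fold of 1.2 in both directions.

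The 3 ETS factors of the PEA3 group gave values of both signs. *Etv5* (chromosome 16, 22381309 to 22439719, minus strand) was at 280, 248, 248 and 272 normalized counts in the left libraries and at 222, 242, 236 and 271 in the right ones. The left value was above the right one by more than counting error in L29-3 only, and the log2 fold change was 0.11 (SE 0.0856, 95% interval -0.08 to 0.30, adjusted p = 0.987, edgeR). *Etv4* (chromosome 11, 101769742 to 101785371, minus strand) was at 51.9, 40.4, 49.6 and 51.1 in the left libraries and at 58.2, 52.3, 55.8 and 51.5 in the right ones. The left value was below the right one in 4 of 4 embryos, with a log2 fold change of -0.20 (SE 0.162, 95% interval -0.55 to 0.15, adjusted p = 0.987, edgeR), and no embryo alone exceeded its counting error.

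*Etv1* (chromosome 12, 38779380 to 38870484, plus strand) had the largest fitted difference and the fewest reads of the 10 genes. Its left values were 20.3, 33.9, 30.9 and 32.5 normalized counts and its right values 22.3, 19.7, 26.6 and 15.0, from 9 to 52 reads per library. The log2 fold change was 0.48 (SE 0.260, 95% interval -0.09 to 1.04, adjusted p = 0.987, edgeR). It was 0.66, with an unadjusted p of 0.0484, without L29-3, the embryo in which the left was not higher. Its values are also uncertain because a processed copy, *Gm5454*, shares 1453 near-identical bases with it. *Gm5454* had 26 reads in the left and 24 in the right libraries, against 136 and 85 for *Etv1*. A second such copy is that of *Etv5*, *Gm4798*, which shares 1700 bases and has no row in the table used.

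**Figure D2:**
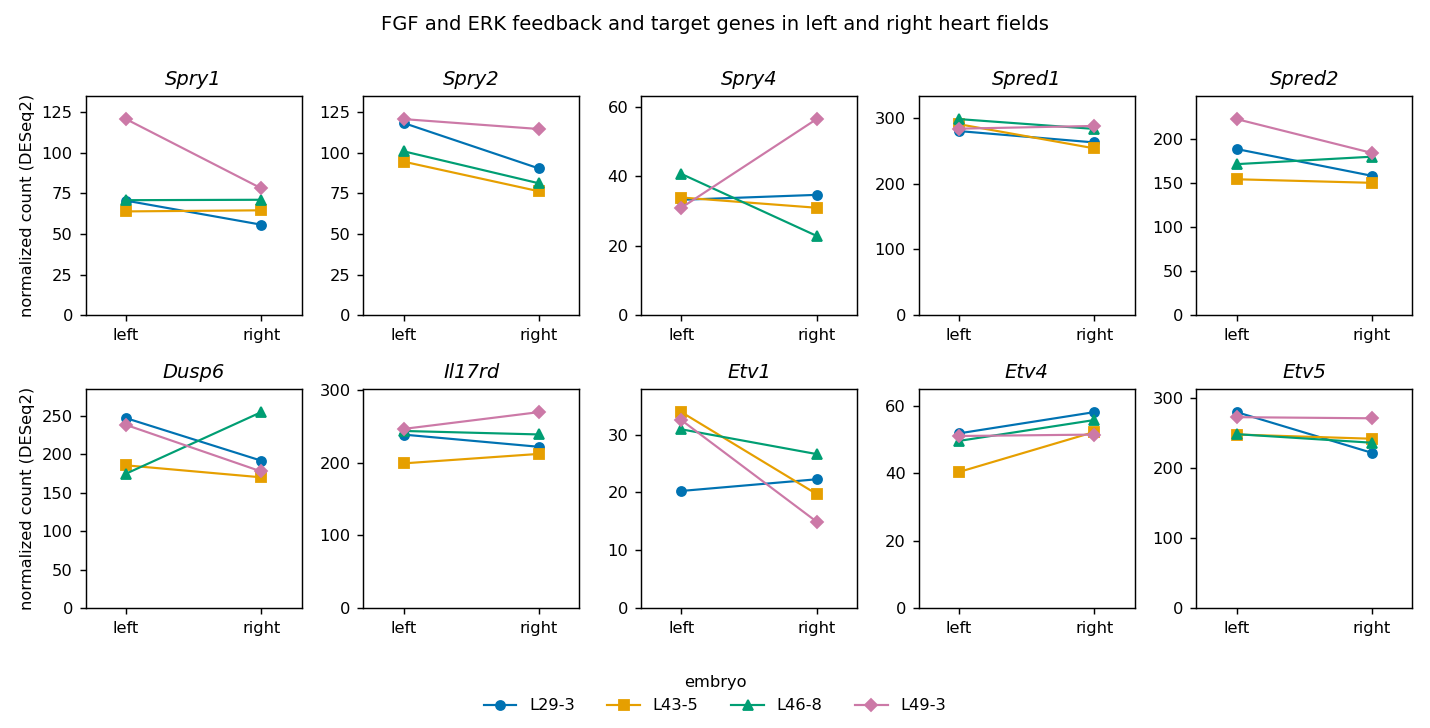
Normalized counts (DESeq2 size factors, axes from 0) of each gene in the left and right heart field, with a line joining the sides of each of the 4 embryos. All 4 lines of *Spry2* fall from left to right and all 4 of *Etv4* rise. *Dusp6* rises in L46-8 (175 to 255) and falls in the other 3 embryos, and *Spry4* rises in L49-3 (31.0 to 56.5) and falls in L46-8 (40.7 to 22.8).

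Within the PEA3 group the difference between the factors was compared embryo by embryo. The log2 ratio of left over right was higher for *Etv5* than for *Etv4* in 4 of 4 embryos, by 0.29 ± 0.208 (SD, n = 4), and higher for *Etv1* than for *Etv4* in 4 of 4, the difference of *Etv4* minus *Etv1* being -0.65 ± 0.537. Both gave p = 0.125 by the exact two-sided sign-flip test, the smallest possible with 4 embryos, and 0.438 after adjustment over the 7 pairs. The remaining 5 pairs, all 3 among the Sprouty genes, the Spred pair and *Etv5* with *Etv1*, gave p-values of 0.375 to 0.875 in the same exact test.

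Across the 10 genes, 8 had a fitted value above 0 and 2, *Etv4* and *Il17rd*, below it. The median log2 fold change was 0.10, against -0.00 over the 9744 genes tested, of which 4734 were above 0. In single embryos, in the same order as above, the median of the 10 log2 ratios was 0.18, 0.08, 0.04 and 0.03, with 7, 7, 6 and 5 of the 10 genes higher on the left. Medians over all genes tested lay within 0.01 of 0 in each embryo. Counting intervals excluded 0 in 9 of the 40 ratios of a gene in an embryo, against 15.5% of such ratios over all genes tested. They lay above 0 in 7 (7.22% over all genes) and below 0 in 2 (8.32%). The width of an interval depends on the reads of a gene. How small a difference could be seen differed between genes: the 95% interval of the fold lay within 1.2-fold for 2 genes, *Spred1* and *Il17rd*, within 1.3-fold for 5, adding *Spred2*, *Dusp6* and *Etv5*, and within 1.5-fold for 9. For *Etv1* it reached 2.06-fold. The bounds of *Spred1* (1.196-fold) and *Dusp6* (1.299-fold) were close to these limits. All are from the edgeR fit with the embryo block, and intervals were not computed under the alternatives.

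**Figure D3:**
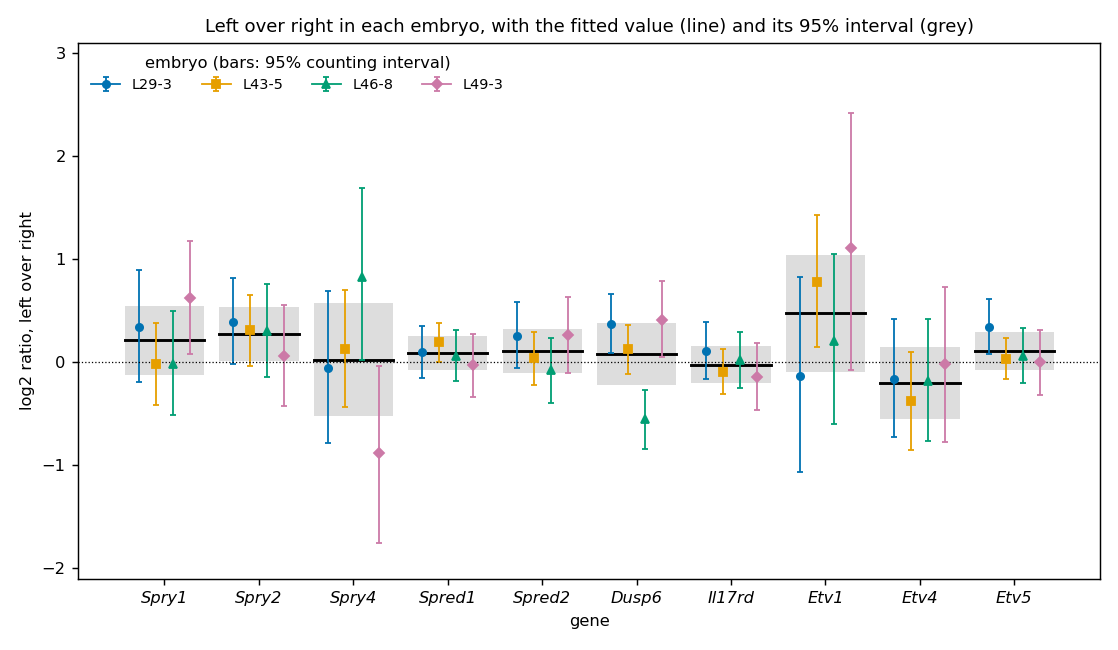
Log2 ratio of left over right for each gene in each embryo, with bars for the 95% counting interval, and the fitted log2 fold change (black line) with its 95% interval (grey). Grey boxes of 9 genes include 0, and *Spry2* (0.28, 0.02 to 0.54) is the exception. In *Dusp6* and *Spry4* embryos lie on opposite sides of 0 beyond their bars.

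Differences between embryos were tested in the same fit. None of the 10 genes had an adjusted p under 0.05, against 17 of 9744 genes (0.174%), and 1 had an unadjusted p under 0.05, as did 9.99% of all genes tested. That gene was *Spry1*, whose means of both sides were 63.1, 64.2, 70.9 and 99.4 normalized counts (adjusted p = 0.471, edgeR). Its unadjusted p was 0.0425, and 0.726 without L49-3. L49-3 had the highest mean for 6 of the 10 genes, *Spry1*, *Spry2*, *Spry4*, *Spred2*, *Etv5* and *Il17rd*, as it had for 31.1% of all genes tested. L43-5 had the lowest mean for 5, *Spry2*, *Spred2*, *Dusp6*, *Etv4* and *Il17rd*, against 20.9% of all genes. L49-3 also had the highest sums of neural tube markers, 842 on the left and 947 on the right against 326 to 656 elsewhere, and the lowest of endothelial markers, 613 and 459 against 720 to 811. The part of these tissues in the levels of the 10 genes was not tested. The ratio of the highest to the lowest embryo mean ranged from 1.07 for *Spred1* to 1.58 for *Spry1*.

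The rest of the pathway was read from 5 lists of 86 genes, of which 58 were tested. The threshold of the study was passed by 4, 2 in each direction, against 3.05% of all genes tested. Their median log2 fold change was 0.03, and 34 of the 58 were above 0. None of the 58 had an adjusted p under 0.05 by edgeR, and 7 had an unadjusted p under 0.05, against 425 of all 9744 genes tested. Of 22 FGF ligands 5 were tested and 2 passed the threshold, both with the higher value on the left, as had 1.63% of all genes tested. *Fgf13*, a member of the family that is not secreted and acts inside the cell, had left values of 45.4, 41.1, 53.7 and 46.4 and right values of 35.9, 34.7, 35.5 and 23.3, with no overlap between the sides (log2 fold change 0.48, SE 0.196, adjusted p = 0.987, edgeR). *Fgf3*, a secreted ligand, had left values of 28.4, 22.2, 4.88 and 32.5 and right values of 11.1, 11.2, 8.88 and 21.6 (0.73, SE 0.333, adjusted p = 0.987, edgeR), lower on the left in L46-8. *Fgf10*, the ligand with the highest mean, had a log2 fold change of 0.24 (SE 0.152), and *Fgf8* had -0.42 (SE 0.254) and -0.03 without L43-5, neither gene passing the threshold.

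Of 7 FGF receptors 4 were tested and 0 passed. Without L46-8, *Fgfr2* passed, which had a log2 fold change of -0.22 with all embryos. *Fgfr1*, the most abundant, had 469 ± 38.04 normalized counts over 8 libraries and a log2 fold change of 0.09 (SE 0.0772). In the cascade from adaptors to ERK, 24 of 25 genes were tested and 0 passed, with log2 fold changes between -0.14 and 0.23. *Nras*, the small GTPase with the highest mean of that list, had 0.15 (SE 0.0673), under the fold of the threshold. Of 14 other ETS factors, all tested, 0 passed, *Erf*, a repressor that ERK inactivates, having the highest mean and a log2 fold change of -0.07 (SE 0.109).

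Among 18 other genes that respond to ERK, 11 were tested and 2 passed, both lower on the left, as were 1.42% of all genes tested. Both are phosphatases of the family of *Dusp6* that are located in the nucleus. *Dusp4* had left values of 105, 122, 112 and 129 and right values of 134, 136, 168 and 155, with no overlap between the sides (log2 fold change -0.34, SE 0.111, adjusted p = 0.987, edgeR). *Dusp5* had left values of 62.4, 46.3, 61.9 and 41.8 and right values of 61.9, 71.5, 76.1 and 83.1 (-0.45, SE 0.175, adjusted p = 0.987, edgeR). Of the neural tube markers, 2 of the 7 tested were past the threshold and lower on the left. They were *Sox1* (log2 fold change -0.98) and *Pax6* (-0.83), each with adjusted p = 0.987 by edgeR. In 3 of 4 embryos the list summed to less in the left library than in the right one. In L29-3 it summed to more on the left, 606 against 415. In that embryo *Dusp4* was lower on the left (105 against 134) and *Dusp5* was close between the sides (62.4 against 61.9). *Sox2* was higher on the left in L29-3 (111 against 90.4) and L49-3 (197 against 153), and lower there in L43-5 and L46-8. The part of this tissue in the *Dusp4* and *Dusp5* values was not tested. *Dusp9*, a cytoplasmic phosphatase and the most abundant of the list, had -0.18 (SE 0.133). No difference between *Spry2* and these phosphatases was tested. Of the 4 pathway genes, *Dusp4* alone passed without L49-3. Without L46-8, *Dusp5* and *Fgf3* passed, while *Dusp4* (log2 fold change -0.25) and *Fgf13* (0.44) did not.

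**Figure D4:**
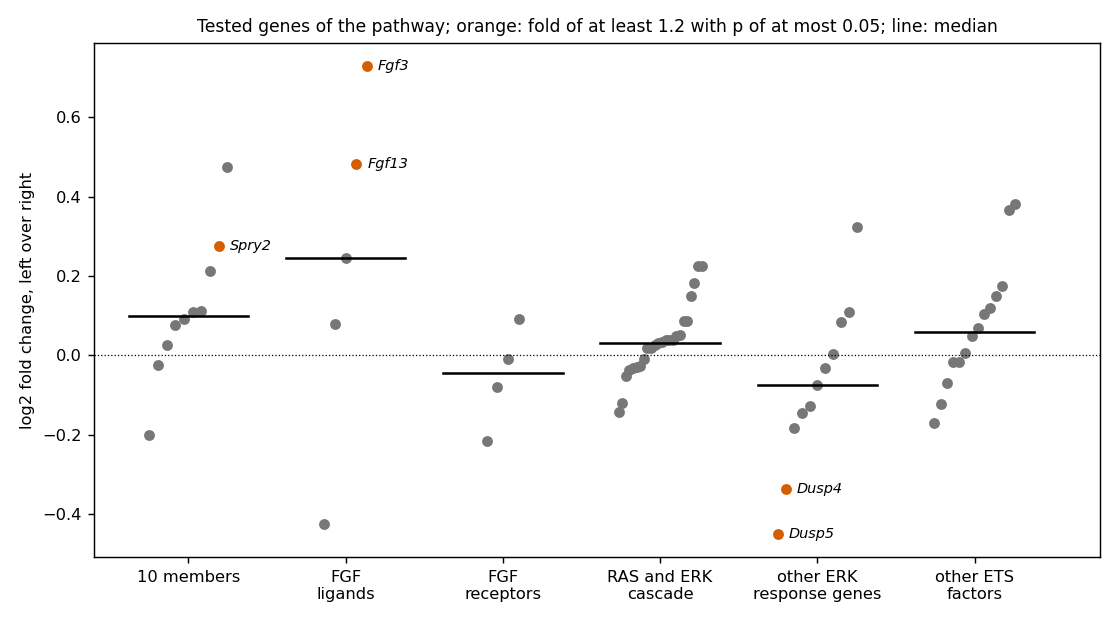
Log2 fold change of left over right for the 10 genes and for the tested genes of 5 lists of the pathway, with a line at each median and genes past the threshold of the study in orange. *Spry2* (0.28), *Fgf3* (0.73) and *Fgf13* (0.48) lie above 0, and *Dusp4* (-0.34) and *Dusp5* (-0.45) below it.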

How the data were processed

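RNA of 4 left and 4 right heart fields was sequenced as poly-A libraries. Hisat2 was used by the authors to map the read pairs to GRCm38, and featureCounts to count reads per gene once duplicates had been taken out. The deposited values are counts of reads per gene, not normalized, for 48526 genes, of which 48144 had a symbol in GENCODE vM21. Versions of the aligner and counter, and whether counting used the strand, are not given in the sources used here. The reads were not analysed here.

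Sides were compared with edgeR 4.0.16 (R 4.3.3), TMM scaling and quasi-likelihood tests that include the embryo as a block, on 9744 genes with at least 20 DESeq2-normalized counts (DESeq2 1.42.0) in at least 4 libraries. Benjamini-Hochberg adjustment was made over these genes, and unadjusted p-values come from the same fit. The 95% interval follows from the SE and the total degrees of freedom of the fit, which add those borrowed across genes to the residual ones. Ratios of left to right in an embryo that are printed with an exact (Clopper-Pearson) interval are ratios of reads scaled by TMM library sizes, with no pseudocount, and the intervals cover counting error only. For medians over genes, differences between family members and the sign-flip test of a side difference, 0.5 was added to TMM-scaled CPM. Levels per kilobase use TMM-normalized CPM over the union of exon bases. Near-identical genes share at least 100 bases at 90% identity (BLAST 2.17.0). Upstream sequences are from RefSeq (GRCm38.p6). The 10 genes and the lists were chosen with earlier results of these data known. The genes named are all 10, each list gene past the threshold, and the list gene of highest mean. Named in addition were *Fgf8*, the marker genes and list genes past the threshold only under an alternative. Both libraries of an embryo come from the same animal and are paired. Deviations of these pairs from side means correlated at 0.165, 0.190, -0.02 and 0.437 in the order of embryos given above. Left and right libraries of different embryos correlated at -0.389 to 0.255, and the pair of L49-3 alone was above all of these. The alternatives were other scalings, other filters, DESeq2, limma-voom (limma 3.58.1), fits without the block, and fits to 3 of the 4 embryos. The edgeR, limma-voom and DESeq2 fits with the block were tested on simulated counts, with changes larger than those fitted for the 10 genes. The other alternatives were not simulated.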

Additional observations from a re-analysis of the deposited data

Results flagged for a closer look

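Among the 4 left or the 4 right libraries of each of the 10 genes, a value far from the others was looked for in 20 groups, and 2 were found, where chance gives about 1 in 20. For *Spry1*, the left library of L49-3, at 121 normalized counts, was far above the other 3 left libraries, which lay between 63.9 and 70.8. The gap made up 0.878 of the range, above Dixon's 95% critical value for 4 samples. For *Il17rd*, the left library of L43-5, at 199, was below the other 3, which lay between 238 and 246, the gap being 0.834 of the range. The left library of L49-3 also had the lowest sum of cardiomyocyte markers, 771 against 2100 to 5817 in the libraries of the other embryos. The cause was not tested for either gene.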

How the results depend on the processing

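The count of members past the fold and p threshold, 1, was 0 with DESeq2 and 0 in edgeR with no replicate block, and 0 to 1 with an embryo left out. The gene was *Spry2* without L49-3, *Etv1* without L29-3 and *Dusp6* without L46-8, and there was none without L43-5. The pairing of sides by embryo otherwise changed no call of the 10 genes, and 0 had an adjusted p under 0.05 under any of the 13 alternatives. Pathway genes past the threshold, 4, were 7 with no filter, 0 with DESeq2 and 1 to 4 with an embryo left out (1 without L49-3). The genes behind these counts differed. They were *Dusp4*, *Dusp5* and *Gab1* without L29-3, and *Dusp4*, *Fgf13*, *Jun* and *Phlda1* without L43-5. Without L46-8 they were *Dusp5*, *Dusp9*, *Fgf3* and *Fgfr2*. With no filter, *Egr2*, *Fgf8* and *Jun* were added. All genes past it, 297, were 687 with no filter and 59 with DESeq2. The median level was 28.0 by coding transcript length. Signs turned for *Spry4* (-0.0066 in edgeR with no replicate block, -0.20 to 0.27 with an embryo left out), *Dusp6* (-0.021 to 0.29), *Il17rd* (-0.066 to 0.0070) and *Erf* (-0.15 to 0.071). *Fgf3* missed the threshold under 7 of 12 alternatives, *Fgf13* under 4 of 13, *Dusp5* under 3 and *Dusp4* under 2, and *Dusp9* passed it without L46-8 (-0.40). Causes were not tested. *Etv1* and *Fgf3* were not tested with at least 10 counts in every library. The share of calls higher on the left, 53.5%, was 62.6% by library size alone, 49.7% without L43-5 and 46.4% without L46-8. Genes called between embryos, 17, were 0 without L49-3 and 236 without L46-8. *Etv1* had the fewest reads, 9 to 52 per library.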
